A study of Avena sativa with 108 samples.

Results

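Endosperm of grain germinated for 48 h was compared between 2 Canadian spring cultivars of oat (Avena sativa), CDC Morrison and AC Morgan. The comparison holds 3 libraries of CDC Morrison and 3 of AC Morgan, which are all the 48 h endosperm libraries and make 6 of the 60 germination libraries and of the 108 libraries in the series. The other germination libraries are embryo and endosperm of the same cultivars at 0, 3, 6, 24 and 48 h, with 3 replicates of each, and the rest of the series is developing grain. Grain was germinated on wet filter paper in growth chambers under long days. The labels separate the groups by cultivar alone and name no transgene or treatment. CDC Morrison grain is known for more mixed-linkage glucan (MLG) and protein, and AC Morgan grain for more starch and larger kernels. The question was whether the hydrolases that mobilise endosperm reserves were induced at the same pace in both.

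In a germinating cereal grain the embryo releases gibberellin, which acts on the aleurone and scutellum. The aleurone, the living outer layer of the endosperm, then secretes α-amylase, proteases, nucleases and cell wall hydrolases into the dead starchy endosperm. α-Amylase and β-amylase cut starch, limit dextrinase removes its branches and α-glucosidase releases glucose. Lichenase and β-glucosidases degrade MLG, the main wall polysaccharide of oat endosperm, whereas xylanases, xylosidases and arabinofuranosidases degrade arabinoxylan. Cysteine proteases and serine carboxypeptidases break down the storage proteins, which in oat are mainly 12S globulins with fewer avenins.

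Transcript levels are given as counts scaled to the library total (CPM) with TMM, the scaling between libraries in edgeR. Differences between cultivars are log2 fold changes, CDC Morrison over AC Morgan, with an approximate standard error (SE) and a Benjamini-Hochberg adjusted p over the 62447 genes given to the quasi-likelihood test of edgeR. The SE was worked back from that test, as the absolute log2 fold change over the square root of the F statistic. A gene was said to be higher, lower, to rise or to fall where the adjusted p was under 0.05. Genes carry the names of the proteins of other species they matched in the deposited tables, and their identifiers are given without the shared prefix AVESA.00001b.r3, with the chromosome (1 to 7) and subgenome (A, C or D) first. Oat is hexaploid, and reads can be divided between near-identical copies of a gene on the 3 subgenomes. Values of single copies are therefore less certain than the sum over a family. A family sum is the summed CPM of all genes with that name, and no test was made on it.

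The 6 libraries held 5325463, 17327798 and 19597061 estimated counts in CDC Morrison replicates 1, 2 and 3, against 5133559, 12002058 and 11651771 in AC Morgan. They went with their cultivar labels. A set of 13 genes found only in CDC Morrison in the 54 other germination libraries summed to 288, 378 and 361 CPM in the CDC Morrison libraries, against 0, 0.161 and 0 in AC Morgan. A set of 33 genes found only in AC Morgan summed to 5.86, 2.79 and 1.91 CPM in CDC Morrison, against 667, 716 and 670.1 CPM in AC Morgan. The labels do not say whether replicates were separate lots of grain, so the p-values measure the spread between these samples, which may be technical.

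CDC Morrison replicate 1 stood apart from its group. The variance between its counts and those of replicates 2 and 3 was 9.29 and 10.0 times the counting variance, against 3.64 times between replicates 2 and 3 and 2.55 to 3.39 times within AC Morgan. Genes that mark the starchy endosperm (80 genes, of which 77 encode storage proteins) summed to 30379.9 CPM in this library and to 16942 and 17497 CPM in the other CDC Morrison libraries, against 36922, 31583 and 24983 CPM in AC Morgan. Aleurone genes (26 genes, all hydrolases of the lists below) summed to 5662 CPM in it and to 16296 and 17158 CPM in the other CDC Morrison libraries, against 6403, 5531 and 5836 CPM in AC Morgan. At 24 h, CDC Morrison replicate 3 stood apart in the other direction. It held 10583 CPM of starchy endosperm genes and 3468 CPM of aleurone genes, where replicates 1 and 2 held 34748 and 29926 CPM and 1055 and 1239 CPM. The defining α-amylase and 12S globulin genes were present in all 6 libraries. Genes of the embryo (42 genes, absent or nearly so from 24 h endosperm) summed to 141, 51.8 and 27.0 CPM in CDC Morrison and to 23.0, 71.9 and 258 CPM in AC Morgan, against at least 6636 CPM in 48 h embryo. The results below are given with and without these CDC Morrison libraries where they rest on them. In whole tissue, fewer cells of a type and less RNA per cell cannot be told apart.

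At 48 h, 4823 genes (7.72% of those tested) were higher and 5094 (8.16%) lower in CDC Morrison endosperm, together 15.9%. Without replicate 1 of CDC Morrison the counts were 4287 and 4146. Much of this difference was already there in other libraries. Of the 4823 higher genes, 1990 (41.3%) were also higher in dry endosperm at 0 h, 2262 (46.9%) at 24 h and 1955 (40.5%) in 48 h embryo. Of the 5094 lower genes, 2062 (40.5%) were also lower at 0 h, 2738 (53.7%) at 24 h and 2214 (43.5%) in 48 h embryo. In all, 1542 of the higher (32.0%) and 1666 of the lower genes (32.7%) were called in neither direction at the 4 earlier times. Over all genes tested, 6.96% were higher and 6.09% lower at 0 h, 5.55% and 5.9% at 3 h, 6.8% and 6.64% at 6 h, 6.16% and 7.2% at 24 h, and 6.24% and 5.45% in 48 h embryo. In either direction these are 13.1%, 11.5%, 13.4% and 13.4% at the 4 times and 11.7% in embryo.

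The genes with the smallest p included single copies whose level was far apart between the cultivars. The serine carboxypeptidase 3 gene 2Dg0000495, a secreted exopeptidase, had 1761, 2335 and 1949.5 CPM in CDC Morrison, against 211, 219 and 241 CPM in AC Morgan (log2 fold change 3.17, SE 0.20, adjusted p = 5.5e-17). Acyl-coenzyme A oxidase 3 (4Cg0001820), which starts peroxisomal β-oxidation of fatty acids, had 391, 389.7 and 326 CPM, against 33.1, 30.9 and 24.4 CPM (3.65, SE 0.22, adjusted p = 8.6e-18). Cytoplasmic phosphoglucomutase (4Dg0001644), which interconverts glucose phosphates, had 9.71, 5.95 and 8.33 CPM in CDC Morrison, against 137, 180.1 and 198 CPM in AC Morgan (-4.44, SE 0.23, adjusted p = 1.5e-19). The rule by which these 3 genes were named required libraries without overlap, which 16.4% of all genes had with CDC Morrison above and 17.5% with it below. A cell division control protein 48 homolog (1Cg0001084) had 33.1, 42.9 and 37.9 CPM in CDC Morrison and no count in AC Morgan, at least 380.3-fold higher against a floor of 3 counts over the AC Morgan libraries. For the 10 most significant higher genes, the call was also made at 0, 3, 6 and 24 h and in 48 h embryo. The 10 most significant lower genes were also lower at 3, 6 and 24 h, 9 of them at 0 h and 8 in 48 h embryo. The sum over all genes of the same name differed less than the single copy. It was 1.56 times as high in CDC Morrison for serine carboxypeptidase 3, 3.58 times for acyl-coenzyme A oxidase 3 and 0.772 times for phosphoglucomutase.

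Starch hydrolases (58 genes, 55 tested) were more often higher than lower in CDC Morrison. Of these, 11 were higher and 5 lower, 20.0% and 9.09% of the list, against 7.72% and 8.16% of all genes. Without replicate 1 of CDC Morrison 10 were higher and 5 lower, whereas DESeq2 called 4 higher and 5 lower. The median log2 fold change of the 21 members with at least 10 CPM was 1.14, against 0.10 for all genes at that level. Summed over the list, CDC Morrison held 7771, 21649 and 19945 CPM, against 7687, 6372 and 6971 CPM in AC Morgan. The ratio of the means was 2.35, or 2.97 without replicate 1, which by itself was 1.11 times the AC Morgan mean. Replicate 1 thus lay just above the highest AC Morgan library, and replicates 2 and 3 lay far above it.

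α-Amylase made up most of that sum. The 20 α-amylase genes summed to 3391, 12714 and 13267 CPM in CDC Morrison, against 3575, 3258 and 3905 CPM in AC Morgan. CDC Morrison replicate 1 lay within the range of AC Morgan. The ratio of the means was 2.74 with this library and 3.63 without it. At the level of genes edgeR called 7 of the 20 higher and none lower, whereas DESeq2 called none and limma 10 higher, and at an unadjusted p under 0.05 8 were higher and none lower in edgeR. All 5 genes for α-amylase isozyme 3B were among them. Their sum was 1456, 4841 and 4866 CPM in CDC Morrison, against 802, 712 and 1072 CPM in AC Morgan, with no overlap. The copy on 5D (5Dg0002159) had 683, 1864 and 1969 CPM, against 270.0, 224 and 397 CPM (log2 fold change 2.34, SE 0.69, adjusted p = 0.014), and that on 5A (5Ag0002611) had 323, 1027 and 1050.0 CPM, against 124, 144 and 277 CPM (2.14, SE 0.61, adjusted p = 0.011). Both calls were lost when AC Morgan replicate 1 or 2 was left out. Over all alternatives the adjusted p ran from 8.2e-05 to 0.12 for the 5D copy and from 0.00011 to 0.093 for the 5A copy, with the highest values in DESeq2. None of the 4 genes for the type B isozyme passed the test in edgeR, none at an unadjusted p under 0.05, none in DESeq2 and 1 in limma. The most abundant of them, 1Dg0002996, had 847, 3743 and 4020.5 CPM in CDC Morrison, against 999, 954 and 1241 CPM in AC Morgan (1.43, SE 0.72, adjusted p = 0.19).

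β-Amylase, the exo-enzyme that releases maltose, was also more abundant in CDC Morrison. The family summed to 4195, 7382 and 5258 CPM, against 3556, 2521 and 2272 CPM in AC Morgan, a ratio of 2.02 without overlap. Of 19 genes 3 were higher and 2 lower. The copy on 2D (2Dg0002606) had 2370.4, 4307 and 3182 CPM, against 1025, 898 and 737 CPM (log2 fold change 1.89, SE 0.43, adjusted p = 0.0012), and that on 2C (2Cg0000631) had 391, 539.8 and 338 CPM, against 98.6, 73.3 and 56.4 CPM (2.48, SE 0.39, adjusted p = 4.2e-06). The copy on 2A (2Ag0000038) overlapped between cultivars, with 1378, 2430.2 and 1612 CPM in CDC Morrison, against 2338, 1471 and 1391 CPM in AC Morgan (0.06, SE 0.46, adjusted p = 1).

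α-Glucosidase (12 genes) summed to 142, 1518 and 1394 CPM in CDC Morrison, against 529, 563 and 759.8 CPM in AC Morgan, so that replicate 1 was below all AC Morgan libraries and the other CDC Morrison libraries above them. The ratio of the means was 1.65, or 2.36 without replicate 1. Of the 12 genes 1 was higher and 2 lower. The higher gene, 4Dg0000336, had 5.86, 7.77 and 8.65 CPM in CDC Morrison, against 2.68, 5.40 and 4.68 CPM in AC Morgan (log2 fold change 0.78, SE 0.26, adjusted p = 0.035). The lower gene 7Dg0002501 differed more, with 1.34, 8.02 and 10.8 CPM, against 144, 151 and 241 CPM (log2 fold change -4.65, SE 0.94, adjusted p = 0.00024). Limit dextrinase and pullulanase, which cut the branch points, were scarce. Their 3 genes summed to 13.7, 10.1 and 8.81 CPM in CDC Morrison, against 14.9, 11.6 and 10.8 CPM in AC Morgan, and the pullulanase gene 1Ag0002433 was lower (-2.70, SE 0.58, adjusted p = 0.0006) at 1.00, 0.364 and 0.212 CPM, against 4.40, 2.98 and 1.45 CPM.

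**Figure D1:**
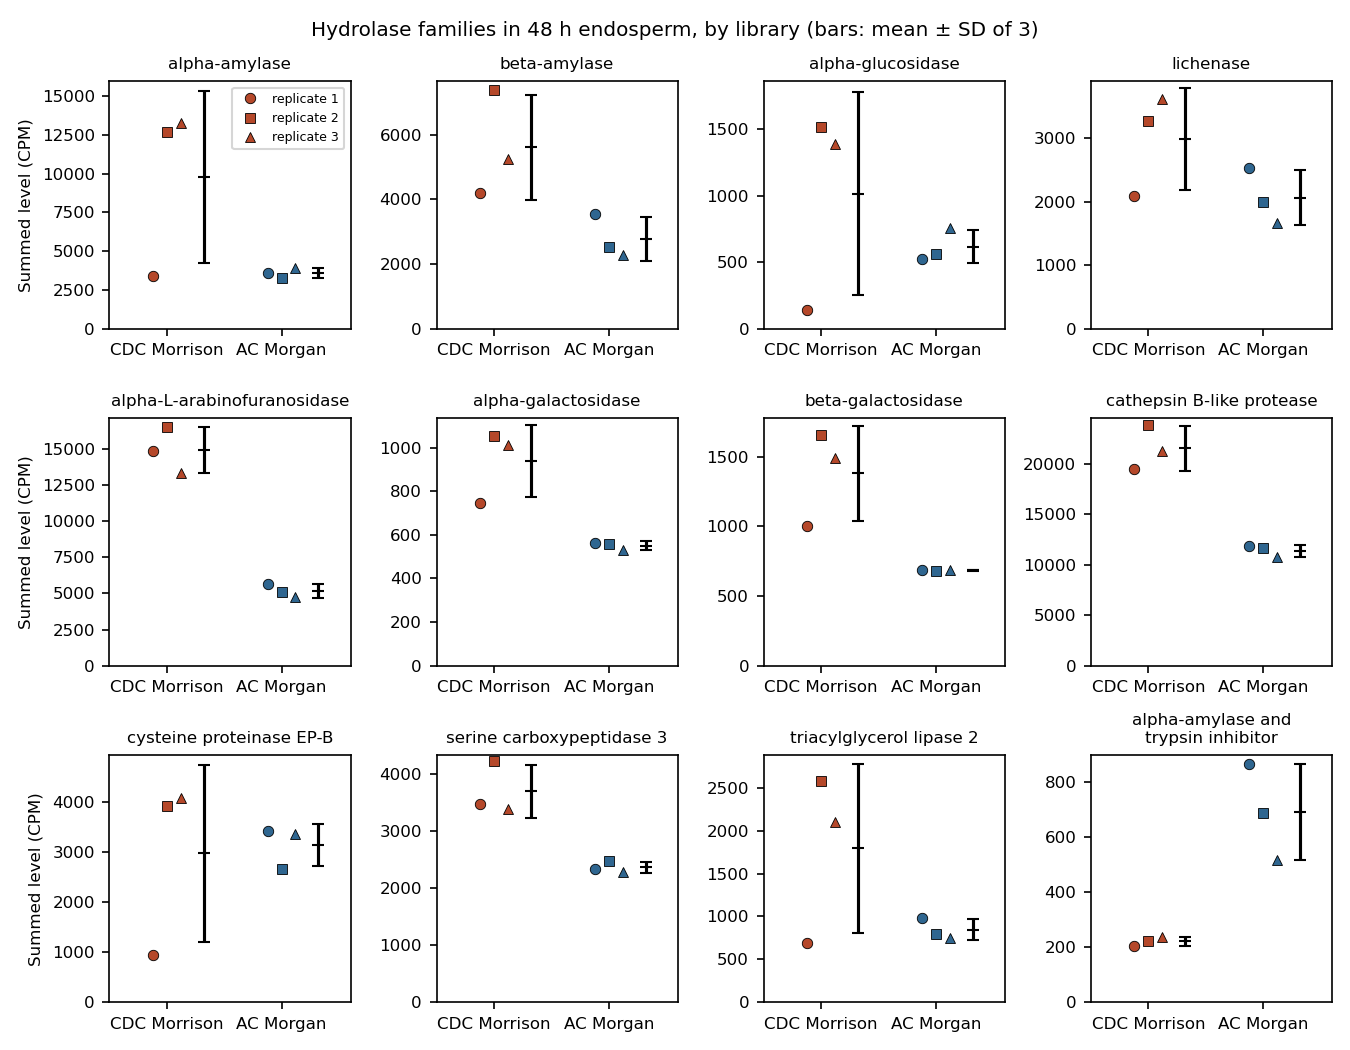
Summed transcript level (CPM, linear axes from 0) of 12 gene families in 48 h endosperm, CDC Morrison on the left of each panel and AC Morgan on the right; circles, squares and triangles are replicates 1, 2 and 3, and bars are the mean ± SD of 3 libraries. α-Amylase was 3391 CPM in CDC Morrison replicate 1 and 12714 and 13267 CPM in replicates 2 and 3, whereas α-L-arabinofuranosidase was between 13336 and 16531 CPM in all 3, against 4744 to 5662 CPM in AC Morgan.

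Hydrolases of MLG and other β-glucans did not tend to either side. Of 314 genes tested 20 were higher (6.37%) and 27 lower (8.6%), near the background of 7.72% and 8.16%, and the median of the 59 members with at least 10 CPM was -0.10. The list summed to 11652, 19295 and 20072 CPM in CDC Morrison, against 16139.6, 14197 and 13319 CPM in AC Morgan, a ratio of 1.17. None of the 3 lichenase genes, which include the GUB2 genes of the study, passed the test in edgeR, DESeq2 or limma, and none had an unadjusted p under 0.05. They summed to 2093, 3266 and 3614 CPM in CDC Morrison, against 2536, 2000.0 and 1667 CPM in AC Morgan, and the libraries overlapped. β-Glucosidase 26 (8 genes), which can release glucose from the fragments, summed to 5913, 9381 and 9002 CPM, against 5964, 5342 and 5413 CPM. Of these, 3 were higher and none lower in edgeR, and DESeq2 and limma each called 4 higher and none lower. At an unadjusted p under 0.05, 5 were higher and none lower. The most abundant copy, 6Ag0002703, had a log2 fold change of 0.60 (SE 0.23, adjusted p = 0.061).

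Single β-glucan hydrolases differed strongly in both directions. β-Glucosidase 7 (4Dg0001596) had 34.3, 41.5 and 33.7 CPM in CDC Morrison, against 8.81, 8.14 and 10.6 CPM in AC Morgan (log2 fold change 1.99, SE 0.19, adjusted p = 3.3e-11). A glucan 1,3-β-glucosidase (7Dg0000873) had 12.2, 17.7 and 13.5 CPM, against 0.383, 0.322 and 0.887 CPM (4.68, SE 0.42, adjusted p = 7.5e-12). The lower genes included glucan endo-1,3-β-glucosidase GII (4Ag0003579), an enzyme that acts on callose and fungal walls, which had 8.03, 5.47 and 8.65 CPM in CDC Morrison, against 854, 771 and 467 CPM in AC Morgan (-6.57, SE 0.63, adjusted p = 2.5e-11). Endoglucanase 16 (1Ag0003404) had no count in CDC Morrison, against 11.9, 13.0 and 11.9 CPM in AC Morgan, at least 169-fold lower against a floor of 3 counts over the CDC Morrison libraries. The endo-1,3-β-glucosidases (132 genes, 121 tested), GII among them, summed to 1126, 1095 and 1291 CPM in CDC Morrison, against 3333, 2569 and 1633 CPM in AC Morgan, with 2 genes higher and 4 lower. The CSLF6 genes, which encode the MLG synthase, were scarce at this time. The 4 genes summed to 5.52, 12.4 and 10.5 CPM in CDC Morrison, against 18.6, 23.8 and 26.6 CPM in AC Morgan. Of these, 7Ag0002427 passed the test (-4.07, SE 1.36, adjusted p = 0.032), a call lost in 7 of 17 alternatives (adjusted p from 0.0022 to 0.13).

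Hydrolases of xylan, arabinan, mannan and galactan were more often higher than lower in CDC Morrison. Of 137 genes 26 were higher (19.0%) and 4 lower (2.92%), against 7.72% and 8.16% of all genes, and without replicate 1 the counts were 27 and 4. The 43 members with at least 10 CPM had a median of 1.13, with 21 higher and 1 lower. The list summed to 17001, 21266 and 17726 CPM in CDC Morrison, against 7800.3, 7107 and 6639 CPM in AC Morgan. All CDC Morrison libraries, replicate 1 included, were above all of AC Morgan, and the ratio of the means was 2.60 with replicate 1 and 2.71 without it. The list leaned the same way in 48 h embryo, with 17 of 137 genes higher and 2 lower, against 6.24% and 5.45% of all genes. Of the 26 higher genes, 9 were also higher in 48 h embryo, 9 at 24 h and 7 at 0 h. At none of the earlier times were 12 of them higher.

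α-L-Arabinofuranosidase, which removes the arabinose side chains of arabinoxylan, carried most of this sum. Its 19 genes (18 tested) summed to 14845, 16531 and 13336 CPM in CDC Morrison, against 5662, 5121 and 4744 CPM in AC Morgan, a ratio of 2.88. In all, 10 genes were higher and none lower. The copy on 5D (5Dg0001439), the second most abundant gene in these libraries by CPM, had 8527, 9245 and 7772 CPM, against 3374, 3042 and 2834 CPM (log2 fold change 1.47, SE 0.32, adjusted p = 0.00062). The copy on 5A (5Ag0001861) had 3538, 4188 and 3344 CPM, against 961, 909 and 949 CPM (1.97, SE 0.31, adjusted p = 3.0e-06), and that on 5C (5Cg0001391) had 2072, 1995 and 1478 CPM, against 962, 881 and 697 CPM (1.13, SE 0.26, adjusted p = 0.0013). All 3 subgenome copies therefore differed in the same direction. A less abundant member, 6Ag0002901, differed more, with 135, 201 and 146 CPM, against 4.98, 4.27 and 2.26 CPM (5.43, SE 0.45, adjusted p = 4.2e-13).

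Some enzymes that act on galactan and galactomannan were also higher, among them 3 of 16 α-galactosidases, against 7.72% of all genes. The β-galactosidases (43 tested) summed to 999, 1658 and 1488 CPM in CDC Morrison, against 685, 682 and 684 CPM in AC Morgan, with 11 genes higher and 2 lower. Of the β-galactosidase 6 genes, which remove terminal galactose, 1Dg0002852 had 139.7, 266 and 214 CPM, against 70.3, 63.4 and 62.6 CPM (log2 fold change 1.66, SE 0.21, adjusted p = 4.6e-08), and 4Cg0003500 and 5Ag0000312 were higher by 1.93 and 2.50. An α-galactosidase (1Ag0000616) had 92.9, 172 and 154 CPM, against 30.6, 29.3 and 28.2 CPM (2.25, SE 0.25, adjusted p = 1.5e-09). The backbone enzymes gave fewer calls. Endo-xylanases (19 tested) summed to 121, 458 and 514 CPM in CDC Morrison, against 175, 132 and 114 CPM in AC Morgan, with 1 higher and 2 lower, and β-D-xylosidases (23 tested) summed to 114, 805 and 796 CPM, against 526, 456 and 434 CPM, with no gene called by edgeR (3 higher and 2 lower at an unadjusted p under 0.05), 1 higher in DESeq2 and 2 higher in limma. Endo-β-mannanases (15 tested) summed to 174, 756 and 578 CPM, against 188, 155 and 132 CPM, with 1 higher. In these 3 families replicate 1 of CDC Morrison was within or below the range of AC Morgan and the other replicates were above it. A single endo-1,4-β-xylanase 1 gene (3Ag0000156) was lower, at 0, 0 and 0.0531 CPM, against 11.7, 7.50 and 8.55 CPM (adjusted p = 2.9e-08).

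Cysteine proteases were led by cathepsin B-like proteases, vacuolar enzymes that include the single most abundant gene of these 6 libraries. Of 95 cysteine protease genes 10 were higher (10.5%) and 5 lower (5.26%), against 7.72% and 8.16% of all genes. The list summed to 25041, 34393 and 32257 CPM in CDC Morrison, against 20463, 18939 and 18630.2 CPM in AC Morgan, without overlap. The 6 cathepsin B-like genes summed to 19513, 23881 and 21248 CPM, against 11836, 11674 and 10739 CPM, a ratio of 1.89, and 4 of the 6 were higher. The most abundant, 7Cg0000884, had 9779, 9617 and 8680.2 CPM, against 5302, 5079.6 and 4553 CPM (log2 fold change 0.91, SE 0.20, adjusted p = 0.0007). The copies 4Ag0001397 and 4Dg0001739 were higher by 0.98 (SE 0.24, adjusted p = 0.002) and 0.87 (SE 0.19, adjusted p = 0.0006). All 3 were separated between cultivars in every library. By contrast, cysteine proteinase EP-B (7 genes), which is secreted by the aleurone to digest storage protein in barley, gave no call in edgeR (1 lower at an unadjusted p under 0.05) or DESeq2 and 1 higher in limma. It summed to 939, 3904 and 4077 CPM in CDC Morrison, against 3408, 2657 and 3346 CPM in AC Morgan, and replicate 1 was the lowest library. Vacuolar-processing enzymes, which mature storage and vacuolar proteins, went both ways, with 4 of 21 higher and 3 lower. The γ-isozyme 3Cg0001388 had 84.8, 116 and 107 CPM, against 65.3, 55.5 and 66.6 CPM (0.72, SE 0.14, adjusted p = 0.00022), and the β-isozyme 7Dg0000831 had no count in CDC Morrison, against 26.8, 19.2 and 11.3 CPM in AC Morgan, at least 263-fold lower.

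Serine carboxypeptidases and aspartic proteases gave 27 higher (9.61%) and 17 lower genes (6.05%) of 281, not far from the 7.72% and 8.16% of all genes. The summed level was 10545, 13321 and 12575 CPM in CDC Morrison, against 8111, 7904 and 7719 CPM in AC Morgan, without overlap. Serine carboxypeptidase-like 42 (4Dg0001149) had 2751, 2569 and 2834 CPM, against 1098, 947 and 956 CPM (log2 fold change 1.44, SE 0.22, adjusted p = 1.7e-06). The copies of serine carboxypeptidase 3 moved in opposite directions. While 2Dg0000495 was higher, 1Ag0002652 had 867, 831 and 611 CPM in CDC Morrison, against 1525, 1650.2 and 1507 CPM in AC Morgan (-1.02, SE 0.26, adjusted p = 0.0036). The sum of all 3 copies was 3465, 4229.5 and 3381 CPM, against 2342, 2471 and 2283 CPM, still without overlap. Among aspartic proteases, 7Ag0000313 had 1.17, 1.03 and 0.849 CPM, against 21.1, 19.5 and 24.8 CPM (-4.45, SE 0.39, adjusted p = 1.5e-12).

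Nucleases, phosphatases and phytases were the hydrolase list that was lower in sum, at 434, 752 and 678 CPM in CDC Morrison, against 953, 889 and 991 CPM in AC Morgan. Of 61 genes 3 were higher (4.92%) and 7 lower (11.5%), against 7.72% and 8.16% of all genes. Ribonuclease 2 (4Ag0003271), an extracellular RNase, was higher, with 26.9, 20.1 and 25.8 CPM, against 9.96, 12.2 and 10.2 CPM (log2 fold change 1.16, SE 0.22, adjusted p = 0.00011). Purple acid phosphatase 15 (3Dg0000723), a phytase-like phosphatase, had 71.1, 285 and 291 CPM, against 424, 369.6 and 306 CPM, which did not pass the test (-0.76, SE 0.52, adjusted p = 0.37). Purple acid phosphatase 4 (5Ag0000231) had 50.9, 37.0 and 9.18 CPM, against 28.1, 70.04 and 183 CPM (-1.56, SE 0.54, adjusted p = 0.041), where replicate 3 of AC Morgan, the library with the most embryo transcript, was the highest. This call was lost in 6 of 17 alternatives (adjusted p from 0.011 to 0.57), among them without that library, and the part of embryo RNA in it was not tested.

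Lipases gave 11 higher (4.21%) and 16 lower genes (6.13%) of 261, against 7.72% and 8.16% of all genes. Triacylglycerol lipase 2 (8 genes), which hydrolyses storage oil, summed to 696, 2582 and 2104 CPM in CDC Morrison, against 988, 796 and 755 CPM in AC Morgan. Replicate 1 was again below the others. The copy 7Ag0001627 was higher, with 219.6, 775 and 640.2 CPM, against 187, 155 and 174 CPM (log2 fold change 1.67, SE 0.44, adjusted p = 0.0052). The oil body lipase SDP1 (4Ag0001885), which starts oil breakdown in Arabidopsis seedlings, had 40.5, 45.2 and 45.3 CPM, against 21.3, 28.5 and 26.4 CPM (0.78, SE 0.19, adjusted p = 0.0029).

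Hydrolase inhibitors went the other way. Of 57 genes 5 were higher (8.77%) and 15 lower (26.3%), against 7.72% and 8.16% of all genes, and 12 were lower without replicate 1 of CDC Morrison. Of the 32 members with at least 10 CPM, 6 had a positive log2 fold change. The bifunctional α-amylase and trypsin inhibitors, small grain proteins that act mainly on insect enzymes, summed to 203, 223 and 237 CPM in CDC Morrison, against 863, 687 and 518 CPM in AC Morgan, and 9 of 12 were lower and none higher. The inhibitor CMa gene 4Ag0002471 had 8.20, 8.87 and 7.32 CPM, against 59.9, 49.5 and 36.9 CPM (log2 fold change -2.58, SE 0.56, adjusted p = 0.00065), and the CMb gene 4Cg0001048 had 2.84, 3.58 and 2.18 CPM, against 29.1, 19.3 and 12.7 CPM (-2.81, SE 0.51, adjusted p = 5.6e-05). At 24 h, 8 of these 12 genes were already lower. Starchy endosperm markers were also lower in sum in CDC Morrison, and their part in this difference was not tested. The endogenous α-amylase/subtilisin inhibitor, a single gene that blocks cereal α-amylase, had 144, 352 and 467 CPM in CDC Morrison, against 734, 798 and 748 CPM in AC Morgan, but did not pass the test (-1.24, SE 0.62, adjusted p = 0.19). Serpins (14 genes), the most abundant inhibitors, gave no call in edgeR, DESeq2 or limma, with 1 lower at an unadjusted p under 0.05. The cysteine proteinase inhibitor 12 genes were higher, 3Cg0001700 with 68.3, 70.9 and 95.1 CPM, against 18.0, 17.7 and 17.1 CPM (2.15, SE 0.23, adjusted p = 5.1e-10), and 3Ag0001089 with 128, 129 and 130.2 CPM, against 73.1, 74.2 and 85.2 CPM (0.73, SE 0.16, adjusted p = 0.00081).

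**Figure D2:**
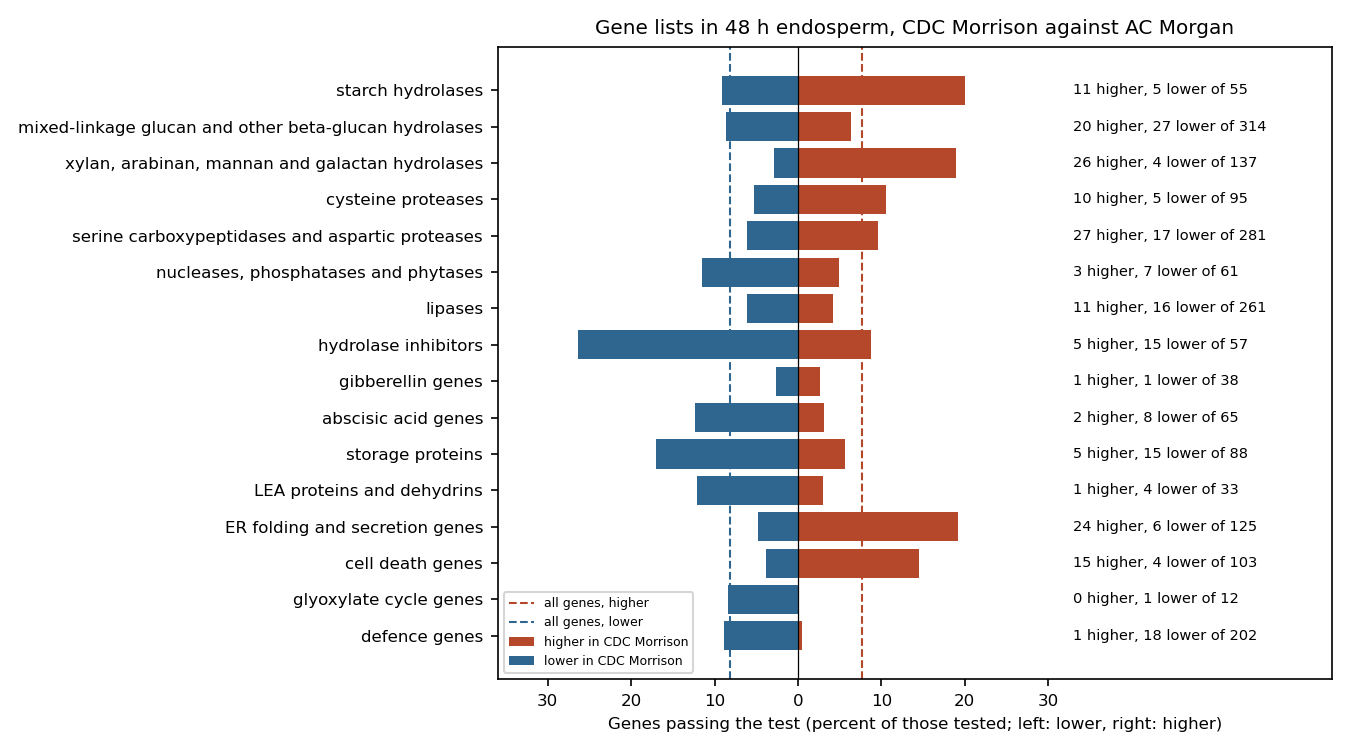
Percent of tested genes of 16 lists that were higher (right, red) or lower (left, blue) in CDC Morrison than in AC Morgan 48 h endosperm, with the counts beside each bar; dashed lines mark 7.72% and 8.16%, the percent of all genes higher and lower. Xylan and related hydrolases (26 higher, 4 lower of 137) and starch hydrolases (11 higher, 5 lower of 55) extend furthest to the right with ER folding genes, and hydrolase inhibitors (15 lower of 57) furthest to the left.

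Storage protein transcripts, which remain from grain filling, were lower in sum in CDC Morrison. The 88 genes summed to 31591, 26928 and 32344 CPM, against 56276, 52211 and 39909.7 CPM in AC Morgan, without overlap. In all, 15 were lower (17.0%) and 5 higher (5.68%), against 8.16% and 7.72% of all genes. The list includes the 63 kDa globulin-like genes described at the end, whose sum did not overlap either (means of 8462 and 18028 CPM). The 12S globulin and avenin sums did overlap between cultivars. Copies of the 12S globulins moved in both directions. The copy 2Dg0000859 had 364, 123 and 132 CPM in CDC Morrison, against 1.91, 1.77 and 2.66 CPM in AC Morgan (log2 fold change 6.58, SE 0.92, adjusted p = 4.8e-07), and 1Ag0002101 had 24.4, 16.3 and 10.6 CPM, against 522, 378 and 312 CPM (-4.58, SE 0.64, adjusted p = 3.8e-07). All 37 genes of the 12S family summed to 21355, 9114 and 8719 CPM, against 19826, 16199 and 13842 CPM. A high molecular weight glutenin subunit (1Ag0003169) had 8.37, 23.5 and 25.7 CPM, against 358, 339 and 277 CPM (-4.06, SE 0.64, adjusted p = 4.0e-06), and puroindoline-B (7Cg0003024), a lipid-binding protein of grain texture, had 9.20, 14.7 and 12.9 CPM, against 327, 221 and 185 CPM (-4.30, SE 0.81, adjusted p = 7.9e-05).

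Genes for protein folding and secretion in the endoplasmic reticulum (ER), through which secreted hydrolases pass, were more often higher than lower. Of 125 genes 24 were higher (19.2%) and 6 lower (4.8%), against 7.72% and 8.16% of all genes, and 19 and 5 without replicate 1 of CDC Morrison. The list summed to 12830.1, 13744 and 12603 CPM in CDC Morrison, against 10568, 9788 and 8979.7 CPM in AC Morgan, and here replicate 1 stood with its group. Protein disulfide-isomerase (34 genes), which forms disulfide bonds, had 9 genes higher and 1 lower. The copy 4Ag0000748 had 1667, 1963 and 1849 CPM, against 762, 777 and 715 CPM (log2 fold change 1.28, SE 0.19, adjusted p = 1.3e-06), whereas 4Dg0001107 had 445, 418 and 387 CPM, against 801, 809 and 770.5 CPM (-0.93, SE 0.16, adjusted p = 2.0e-05). Calnexin, a chaperone of glycoproteins, likewise had 2 higher copies and 1 lower, among them 2Dg0000747 (higher, 1.72, SE 0.22) and 1Ag0002399 (lower, -1.26, SE 0.20). Endoplasmin, the HSP90 of the ER, summed to 2148, 2092 and 1751 CPM, against 1446, 1102 and 986 CPM, with 2 of 3 genes higher.

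Hormone genes gave few calls, while 7.72% of all genes were higher and 8.16% lower. Of 38 gibberellin genes 1 was higher and 1 lower. GAMYB, the transcription factor that activates α-amylase genes in aleurone, summed over 9 genes to 665, 1217 and 1112 CPM in CDC Morrison, against 845, 835 and 805 CPM in AC Morgan, and the only gene of the family called, 2Ag0002502, was lower at 1.17, 0.972 and 0.371 CPM, against 4.40, 3.79 and 4.19 CPM (log2 fold change -2.38, SE 0.50, adjusted p = 0.00044). Of 65 abscisic acid genes 2 were higher (3.08%) and 8 lower (12.3%), but 3 were lower without replicate 1 of CDC Morrison. Among the lower genes were 2 of the 3 copies of abscisic acid 8'-hydroxylase 1, which inactivates the hormone. The copy 6Cg0003079 had 1.00, 3.89 and 4.03 CPM, against 13.0, 13.1 and 9.27 CPM (-1.88, SE 0.47, adjusted p = 0.0032), and 6Ag0001098 had 1.17, 7.29 and 10.1 CPM, against 17.0, 20.0 and 15.9 CPM (-1.43, SE 0.48, adjusted p = 0.035), a call lost in 8 of 17 alternatives (adjusted p from 0.0013 to 0.20). The copy 6Ag0001098 was chosen after its values were seen.

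The remaining lists are given by their counts, to be read beside 7.72% higher and 8.16% lower of all genes. LEA proteins and dehydrins, which protect dry tissue, had 1 higher and 4 lower of 33, and 2 lower without replicate 1 of CDC Morrison. Cell death genes had 15 higher (14.6%) and 4 lower (3.88%) of 103. The higher ones included autophagy-related protein 18h (1Ag0001160), with 71.1, 69.5 and 55.1 CPM in CDC Morrison, against 24.9, 26.3 and 34.0 CPM in AC Morgan (log2 fold change 1.19, SE 0.20, adjusted p = 9.6e-06). The lower metacaspase-1 (5Ag0000905), a protease of plant cell death, had 0.335, 1.15 and 0.371 CPM, against 23.2, 75.6 and 227 CPM, in the same order as the embryo transcript of these libraries (23.0, 71.9 and 258 CPM), whose part in the difference was not tested (-7.33, SE 1.20, adjusted p = 2.5e-05). Of 12 glyoxylate cycle genes, which turn fatty acids into sugar, none was higher and 1 was lower in edgeR, DESeq2 and limma and at an unadjusted p under 0.05, and also without replicate 1 of CDC Morrison. The lower isocitrate lyase copy 2Ag0000072 had 3.18, 5.53 and 4.99 CPM, against 4.79, 375 and 452 CPM (-5.88, SE 0.87, adjusted p = 1.1e-06). AC Morgan replicate 1 thus lay within the range of CDC Morrison, and the order within AC Morgan was again that of the embryo transcript. This copy was also lower in endosperm at 0, 3, 6 and 24 h, and was not called lower in 48 h embryo. The part of embryo RNA in its 48 h difference was not tested. All 3 isocitrate lyase genes together summed to 4662, 8072 and 10344 CPM, against 8219.7, 7213 and 7836 CPM. Defence genes had 1 higher (0.495%) and 18 lower (8.91%) of 202, and 10 lower without replicate 1 of CDC Morrison. The list summed to 8735, 22242 and 29264 CPM in CDC Morrison, against 37970.4, 36580.5 and 26752 CPM in AC Morgan, with replicate 1 far below all others.

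The pace of induction was followed from earlier times. In both cultivars the sums of α-amylase, lichenase, α-L-arabinofuranosidase, cathepsin B-like protease and EP-B were higher at 24 h than at 0 to 6 h in every library, and higher again at 48 h. α-Amylase summed to 21.8, 21.8 and 17.8 CPM in CDC Morrison at 6 h, against 35.6, 23.7 and 25.7 CPM in AC Morgan. At 24 h it was 433, 637 and 2049 CPM, against 444, 529.8 and 420.5 CPM, so that without replicate 3 of CDC Morrison, which stands apart, the ratio of the means was 1.15. At 48 h the sum was 9.42 times the 24 h sum in CDC Morrison and 7.70 times in AC Morgan. Without the libraries that stand apart (replicate 1 at 48 h and replicate 3 at 24 h) the CDC Morrison value was 24.3 times. The size of the α-amylase step in CDC Morrison thus depended on these 2 libraries. α-L-Arabinofuranosidase did not. It was 1679, 1649 and 1359 CPM at 24 h in CDC Morrison, against 766, 789 and 724 CPM in AC Morgan. From there it was 9.54 times as high at 48 h in CDC Morrison (8.97 times without the libraries that stand apart), against 6.81 times in AC Morgan. Cathepsin B-like protease was 4323, 4578 and 4613 CPM at 24 h, against 2470.3, 3438 and 2792 CPM, and 4.78 times as high at 48 h in CDC Morrison, against 3.94 times in AC Morgan. For both families CDC Morrison was thus already above AC Morgan in every library at 24 h. Lichenase was 4.01 times as high at 48 h as at 24 h in CDC Morrison and 4.69 times in AC Morgan, and EP-B 13.0 times in CDC Morrison and 20.1 times in AC Morgan. Without the libraries that stand apart the CDC Morrison values were 7.09 times for lichenase and 30.02 times for EP-B, so that the order of the cultivars turned round for both. For cathepsin B-like protease it was 5.07 times.

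**Figure D3:**
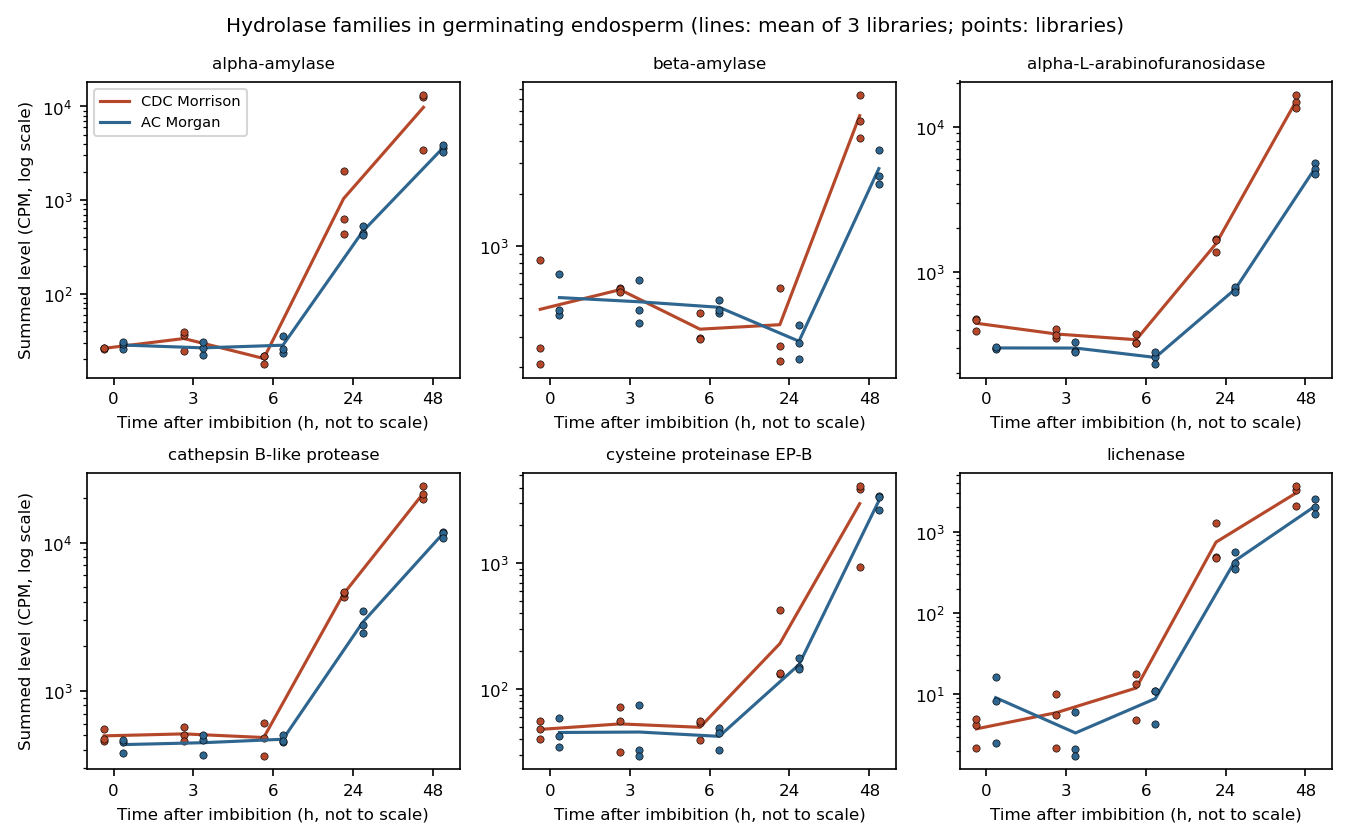
Summed transcript level (CPM, log axis) of 6 hydrolase families in endosperm at 0, 3, 6, 24 and 48 h of germination (time axis not to scale), with CDC Morrison in red and AC Morgan in blue; points are libraries and lines join the means of 3 libraries. The α-amylase libraries lie between 17.8 and 35.6 CPM at 6 h, and the α-L-arabinofuranosidase lines are apart at 24 h (1359 to 1679 CPM in CDC Morrison, against 724 to 789 CPM in AC Morgan) and further apart at 48 h.

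Counted by genes with all libraries, slightly more β-glucan hydrolases passed the test for a rise from 24 to 48 h in CDC Morrison than in AC Morgan. The excess was larger in 4 other lists. These were starch hydrolases (27 of 55 in CDC Morrison and 19 in AC Morgan), xylan and related hydrolases (39 of 137 and 23), cysteine proteases (24 of 95 and 18) and serine carboxypeptidases and aspartic proteases (45 of 281 and 37). Of all genes 5.55% rose in CDC Morrison and 3.81% in AC Morgan, and 6.29% and 3.92% fell. More genes of any kind were thus called in CDC Morrison, not hydrolases alone. Without the 2 CDC Morrison libraries that stand apart this turned round, with 2055 genes up and 1701 down in CDC Morrison, against 2378 up and 2445 down in AC Morgan. The CDC Morrison counts of the 4 lists were then 21, 38, 23 and 36, so that serine carboxypeptidases and aspartic proteases were no longer more often called in CDC Morrison. Scaled by library size alone, 2411 genes rose and 4709 fell in CDC Morrison, against 3465 and 3929 with TMM. The counts for β-glucan hydrolases were 31 and 29 of 314, and those for nucleases 13 and 16 of 61. ER folding genes rose in 33 of 125 cases in CDC Morrison (19 without those libraries) and in 10 in AC Morgan. A call in one cultivar and not in the other does not show a difference, so the difference of the rises was tested itself.

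The rise from 24 to 48 h differed between cultivars for 393 genes (0.629%), of which 241 (0.386%) had a larger and 152 (0.243%) a smaller change in CDC Morrison. This test shares the 48 h libraries with the comparison of levels and is less precise. Its median SE was 0.331 on the log2 scale for genes of at least 10 CPM, against 0.236 for the difference at 48 h. The counts depended on the libraries and the tool. They were 118 and 67 without replicate 3 of CDC Morrison at 24 h, 93 and 40 without this library and replicate 1 at 48 h, 601 and 420 in DESeq2, and 91 and 105 when libraries were scaled by their size alone. No starch hydrolase and no cysteine protease was among the 393. At an unadjusted p under 0.05, 3 starch hydrolases had a larger and 2 a smaller rise, DESeq2 called 1 and limma 2 larger and neither called one smaller. Of cysteine proteases, 6 had a larger and 2 a smaller rise at an unadjusted p under 0.05, and DESeq2 and limma each called 2 larger and none smaller. From 0 to 48 h the change differed for 924 genes (1.48%), 444 (0.711%) with a larger and 480 (0.769%) with a smaller change in CDC Morrison, a split that was 408 and 189 when libraries were scaled by their size alone. For the 5D copy of α-amylase 3B (5Dg0002159) the difference of the rises was 0.43 (SE 0.93, adjusted p = 1), and for the 2D copy of β-amylase (2Dg0002606) 0.64 (SE 0.60, adjusted p = 0.82). A faster or slower rise of these genes was therefore not detectable with these libraries. Of the 241 hydrolases of the first 5 lists with at least 10 CPM, 132 had a larger log2 change in CDC Morrison. The median change was 0.64 in CDC Morrison and 0.56 in AC Morgan. By list the medians were 3.17 and 3.21 for starch hydrolases, 0.09 and 0.52 for β-glucan hydrolases, 1.28 and 0.66 for xylan and related hydrolases, 0.52 and 0.40 for cysteine proteases, and 0.62 and 0.32 for serine carboxypeptidases and aspartic proteases. From 0 to 48 h the median of the starch hydrolases went the other way. The 21 with at least 10 CPM were chosen on the 24 and 48 h endosperm libraries alone. Of these, 6 had a larger change in CDC Morrison, with a median difference of -2.45 for the 21, and 1 was called, as larger. At 0 h the median cultivar difference of the 21 was 2.68, with 14 positive and 0 called. Their median log2 change from 0 to 48 h was 11.03 in CDC Morrison and 11.55 in AC Morgan. Their 0 h levels were thus mostly a very small part of the 48 h levels, and both differences rest on these low values.

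By count, xylan and related hydrolases were the list with most such differences, although abscisic acid genes had a larger share (1 larger and 2 smaller of 65). Of the 137 xylan and related hydrolases 5 had a larger rise (3.65%) and none a smaller one, against 0.386% and 0.243% of all genes. DESeq2 called 9 larger and 2 smaller and limma 11 and 2, and without the libraries that stand apart 4 were larger. They were named here after their values had been seen. The α-L-arabinofuranosidase 1 genes 4Dg0000907 and 7Cg0001817 were nearly equal between cultivars at 24 h and apart at 48 h. For 4Dg0000907 the 24 h values were 43.2, 48.3 and 36.8 CPM in CDC Morrison, against 46.5, 50.5 and 49.3 CPM in AC Morgan, and the 48 h values 165, 188 and 161 CPM, against 72.2, 75.1 and 74.1 CPM (difference of the rises 1.40, SE 0.27, adjusted p = 0.0047). For 7Cg0001817 the 48 h values were 127, 128 and 116 CPM, against 50.9, 55.2 and 56.4 CPM (1.13, SE 0.28, adjusted p = 0.045). The other 3 were β-galactosidase 15 (3Cg0000600, 1.01, SE 0.23, adjusted p = 0.020), a β-galactosidase (4Dg0003171, 1.64, SE 0.38, adjusted p = 0.027) and the α-galactosidase 1Ag0000616 (1.39, SE 0.35, adjusted p = 0.041). In all 5 the CDC Morrison libraries, replicate 1 included, were above those of AC Morgan at 48 h, as for 16.4% of all genes. The 5 genes were picked by a test that uses these 48 h libraries, so this is no separate evidence for them. The call for 4Dg0000907 was kept in all 22 alternatives, with a highest adjusted p of 0.031. It was lost in 12 of 22 for 7Cg0001817, 11 of 22 for 1Ag0000616 and 7 of 22 each for 3Cg0000600 and 4Dg0003171, with highest adjusted p of 0.20, 0.13, 0.14 and 0.13 in that order. For all 4, single libraries of either cultivar were among those whose loss ended the call.

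Other genes whose rise differed had low or moderate levels. β-Glucosidase 7 (4Dg0001596) had a larger rise by 1.34 (SE 0.27, adjusted p = 0.0074) and had been 20.5, 19.9 and 15.8 CPM at 24 h in CDC Morrison, against 10.3, 11.7 and 13.7 CPM in AC Morgan. The cultivars were thus separated at both times. The call was lost with library size alone and after thinning (highest adjusted p 0.26). Phytepsin (1Dg0002080), an aspartic protease also chosen after its values were seen, had 199, 297 and 258 CPM at 48 h in CDC Morrison, against 107, 149 and 155 CPM in AC Morgan, and 122, 120 and 135 CPM at 24 h, against 158, 214 and 197 CPM, so that the order of the cultivars turned round (difference of the rises 1.47, SE 0.25, adjusted p = 0.0013). Pectin acetylesterase 5 (4Dg0003922), which removes acetyl groups from pectin, had 58.2, 67.8 and 53.7 CPM at 48 h, against 16.1, 16.6 and 15.2 CPM, and 3.52, 3.33 and 3.78 CPM at 24 h, against 4.53, 4.76 and 6.01 CPM (2.44, SE 0.33, adjusted p = 7.5e-05). Calcium-dependent protein kinase 15 (1Dg0002182) behaved likewise (2.23, SE 0.30, adjusted p = 7.5e-05). The smaller rises included the abscisic acid 8'-hydroxylase 1 copies 6Cg0003079 (-3.01, SE 0.64, adjusted p = 0.014) and 6Ag0001098 (-3.53, SE 0.68, adjusted p = 0.0058). Both were above AC Morgan at 24 h in every CDC Morrison library and below it at 48 h. Without replicate 3 of CDC Morrison at 24 h and replicate 1 at 48 h together both calls were lost, and that of 6Cg0003079 also without replicate 3 alone (highest adjusted p over the alternatives 0.20 for 6Cg0003079 and 0.082 for 6Ag0001098).

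**Figure D4:**
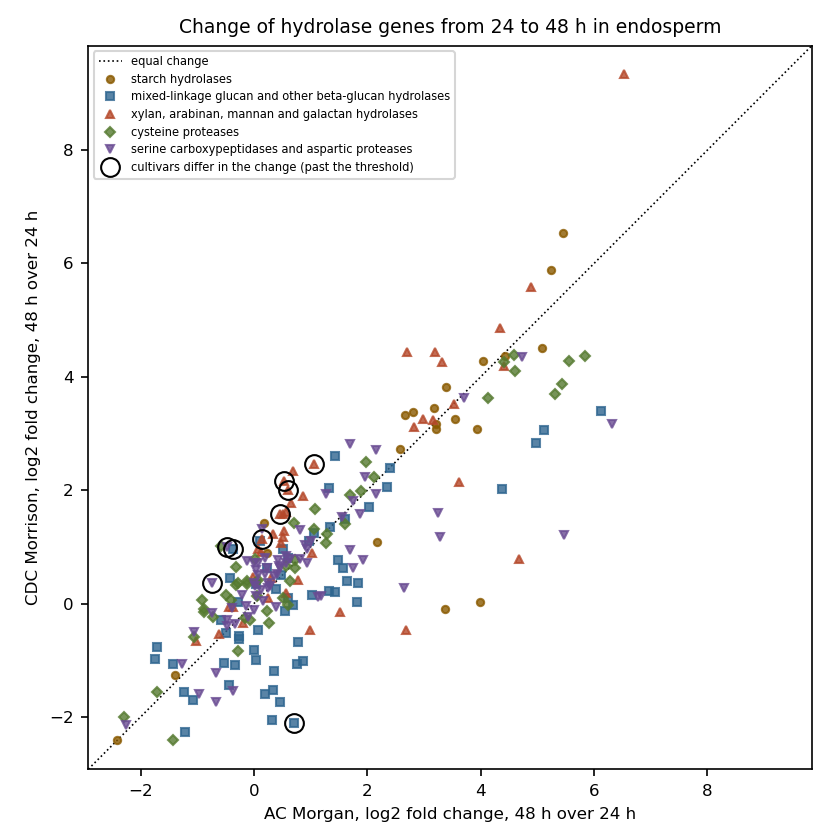
Log2 fold change from 24 to 48 h in endosperm of 241 hydrolase genes with at least 10 CPM, CDC Morrison on the vertical and AC Morgan on the horizontal axis; symbols mark 5 lists, the dotted line marks equal change and open circles mark genes whose change differed past the threshold. Of the 241 genes, 132 lie above the line, and 8 of the circled genes lie above it and 1 below.

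The cultivar difference at 48 h was also set against that in embryo. The cultivar difference was larger (more positive) in endosperm than in embryo for 444 genes (0.711%) and smaller for 664 (1.06%). Hydrolases with a larger difference in endosperm included the α-galactosidase 1Ag0000616 (2.27, adjusted p = 2.8e-05), the 2C copy of β-amylase 2Cg0000631 (1.96, adjusted p = 0.038), the β-galactosidase 6 genes 4Cg0003500 (1.52, adjusted p = 0.0072) and 5Ag0000312 (1.62, adjusted p = 0.035), the arabinofuranosidase 6Ag0002901 (2.23, adjusted p = 0.032) and vacuolar-processing enzyme γ (3Cg0001388, 1.41, adjusted p = 1.2e-05). Those with a smaller one included endo-1,3-β-glucosidase GII (4Ag0003579, -3.71), the endo-xylanase 3Ag0000156 (-7.47) and the aspartic protease 7Ag0000313 (-3.14). Of 314 β-glucan hydrolases the difference was larger for 4 (1.27%) and smaller for 13 (4.14%). For the abundant arabinofuranosidase 5Dg0001439 (0.60, adjusted p = 0.70), cathepsin B-like 7Cg0000884 (0.43, adjusted p = 0.63) and α-amylase 3B 5Dg0002159 (2.02, adjusted p = 0.38) such a difference was not detected. In 48 h embryo the α-amylase genes summed to 729, 1856 and 2682 CPM in CDC Morrison, against 1503, 1513 and 1043 CPM in AC Morgan, and edgeR called no α-amylase gene (2 higher at an unadjusted p under 0.05). The cultivar difference in α-amylase 3B at 48 h was thus called in endosperm and not in embryo, without a detected difference between the tissues.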

How the data were processed

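RNA of embryo and endosperm from germinating grain was sequenced as single-end reads from stranded mRNA libraries. α-Amylase protein had been added to the lysate. The authors trimmed the reads with Trim Galore after FastQC, removed ribosomal reads with Bowtie2, quantified transcripts of the OT3098 v2 oat assembly with Salmon and summed them to genes with tximport (no source used here gives versions). The study describes these steps for developing grain, and the processing notes of the germination samples name the same tools except tximport. The deposited estimated counts (68572 genes) were rounded to whole numbers here and used for all results. The deposited normalized values, which lie on a log2-like scale after a variance stabilizing transformation in DESeq2, hold 61140 genes and were used in 1 alternative. The tables of developing grain were not used here, and 0 columns were left out of the germination tables for want of a sample. Among all genes counted, 17501 had no description and could enter no list.

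The 60 germination libraries, with totals of 3895703 to 39871377 and a median of 13005868, were fitted together in edgeR 4.0.16 (R 4.3.3) with 1 coefficient for each of 20 groups of cultivar, tissue and hour, TMM scaling and the quasi-likelihood test. Genes reaching 5 counts in 5% or more of the libraries were kept, which left 62447, and the p-values were adjusted over these. limma 3.58.1 and DESeq2 1.42.0 served in alternatives, and tables and plots were made in Python 3.11.15 with numpy 2.4.6, pandas 2.3.3 and matplotlib 3.10.9. The test was also run on simulated counts in which no library stood apart, so that run does not bear on the CDC Morrison libraries that do.

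The 16 gene lists and 5 marker lists were drawn up by patterns in the gene descriptions, and members, lists and rules were chosen with earlier results of these data known. Named genes were, at 48 h, the 10 higher and 10 lower genes with the smallest p that had a description, a group mean of at least 10 CPM and libraries without overlap, and the 10 most abundant genes. For each hydrolase list and the inhibitors the 3 most abundant members and up to 5 called in each direction were named, and for other lists up to 3 called in each direction, in order of p. For the rise from 24 to 48 h the 5 genes in each direction with the smallest p and a group mean of at least 10 CPM were named, and the GUB2 and CSLF6 genes by identifier. The 170 genes this gave are described where they bear on the results. Genes named outside the rule are marked as such.

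Alternatives were other scalings, filters and libraries in the fit, a replicate block, thinning to the smallest total, a minimum log2 change of 1, limma, DESeq2 and each library left out. Leaving out both CDC Morrison libraries that stand apart was chosen after seeing the data.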

Additional observations from a re-analysis of the deposited data

Results flagged for a closer look

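Differences between the cultivars in the change from 24 to 48 h were tested as an interaction in edgeR, and 241 genes had a larger and 152 a smaller change in CDC Morrison. The named genes below were singled out because this difference passed the threshold. Their 48 h levels are those of the libraries that enter the 48 h comparison, whereas the 24 h libraries do not enter it.

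Among larger changes, the calcium-dependent protein kinase 15 gene 1Dg0002182, a kinase of calcium signalling, had 49.0, 51.4 and 48.9 CPM at 48 h in CDC Morrison, against 13.8, 14.3 and 11.5 CPM in AC Morgan, and 14.2, 17.3 and 15.9 CPM at 24 h, against 20.8, 17.3 and 20.9 CPM (2.23). The abscisic acid-inducible protein kinase 4Cg0002739 had 11.5, 8.93 and 9.77 CPM at 48 h, against 2.11, 3.79 and 4.43 CPM, and was the lower of the pair at 24 h, with 4.60, 3.45 and 5.04 CPM, against 5.89, 8.77 and 10.9 CPM (2.47, adjusted p = 9.7e-05). For both genes the call was kept under all 22 alternatives. The other larger changes were 2.44 for pectin acetylesterase 5 (4Dg0003922), 1.34 for β-glucosidase 7 (4Dg0001596), 1.39 for the α-galactosidase 1Ag0000616, 1.01 for β-galactosidase 15 (3Cg0000600), 1.40 and 1.13 for the arabinofuranosidase genes 4Dg0000907 and 7Cg0001817, 1.64 for the β-galactosidase 4Dg0003171 and 1.47 for phytepsin (1Dg0002080).

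Among smaller changes, GMP synthase (1Dg0001442), which makes guanine nucleotides, had 15.4, 15.7 and 16.9 CPM at 48 h in CDC Morrison, against 27.4, 28.7 and 29.8 CPM in AC Morgan, where at 24 h it had 28.0, 33.8 and 32.9 CPM, against 22.03, 21.7 and 21.5 CPM (-1.38, adjusted p = 8.5e-05). Enolase 2 (1Dg0002877), a glycolytic enzyme, likewise turned round, with 72.5, 66.7 and 52.9 CPM at 48 h, against 151, 149.7 and 116 CPM, and 64.6, 88.8 and 87.5 CPM at 24 h, against 42.6, 58.0 and 52.4 CPM (-1.77, adjusted p = 0.00012). Both calls were kept under all 22 alternatives. Cytochrome P450 714B2 (5Ag0000678), a gibberellin-modifying enzyme in rice, had 5.69, 5.59 and 3.40 CPM at 48 h, against 3.83, 9.91 and 27.2 CPM, so that the cultivars overlapped, and 4.17, 6.31 and 5.17 CPM at 24 h, against 0.604, 0.149 and 1.17 CPM (-4.52, adjusted p = 9.7e-05). Its highest 48 h value was in AC Morgan replicate 3, the library with the most embryo transcript, whose part in the difference was not tested. The other smaller changes were -1.21 for potassium transporter 23 (5Cg0001945), -2.81 for endo-1,3-β-glucosidase GII (4Ag0003579), and -3.01 and -3.53 for the abscisic acid 8'-hydroxylase 1 genes 6Cg0003079 and 6Ag0001098. The call for 5Cg0001945 was lost in 3 of 22 alternatives, with library size alone, after thinning and without both CDC Morrison libraries that stand apart (highest adjusted p 0.23). For 4Ag0003579 the adjusted p was 0.0497 and the call was lost in 17 of 22 alternatives.

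The cultivar difference at 48 h differed between endosperm and embryo for 444 genes (more positive in endosperm) and 664 genes (more negative), tested as an interaction in edgeR. Potassium transporter 23 (5Cg0001945), a carrier of potassium ions, had 18.6, 22.5 and 24.5 CPM in CDC Morrison endosperm, against 205, 234 and 197 CPM in AC Morgan endosperm, whereas the embryo values were 30.0, 17.2 and 17.6 CPM in CDC Morrison, against 21.4, 25.5 and 24.1 CPM in AC Morgan, with overlap (-3.14, adjusted p = 9.8e-12). β-Galactosidase 8 (1Ag0001871) was lower in CDC Morrison endosperm, with 11.9, 8.81 and 12.6 CPM, against 23.4, 21.3 and 22.6 CPM, and overlapped in embryo, with 22.5, 15.4 and 12.2 CPM, against 15.3, 11.9 and 15.6 CPM (-1.24). For methylthioribose kinase 1 (4Cg0000013, 1.15) and hydroxymethylglutaryl-CoA synthase (4Ag0002585, -3.08) the cultivars were apart in both tissues, and further apart in endosperm.

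The other hydrolases with such a difference, all on the log2 scale, were 1.96 for the β-amylase 2Cg0000631, 2.78 for the glucan 1,3-β-glucosidase 7Dg0000873, -3.71 for endo-1,3-β-glucosidase GII (4Ag0003579), 2.23 for the arabinofuranosidase 6Ag0002901, 2.27 for the α-galactosidase 1Ag0000616, 1.52 and 1.62 for the β-galactosidase 6 genes 4Cg0003500 and 5Ag0000312, -7.47 for the endo-xylanase 3Ag0000156, 1.41 for vacuolar-processing enzyme γ (3Cg0001388) and -3.14 for the aspartic protease 7Ag0000313. Among other named genes it was -3.43 for GAMYB (2Ag0002502), -5.09 for the 12S globulin 1Ag0002101, -5.19 for the glutenin 1Ag0003169, 0.88 for protein disulfide-isomerase (4Dg0001107), -4.63 for isocitrate lyase (2Ag0000072), 1.14 for calcium-dependent protein kinase 15 (1Dg0002182), 1.35 for pectin acetylesterase 5 (4Dg0003922) and -1.05 for enolase 2 (1Dg0002877).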

How the results depend on the processing

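At 48 h the counts of 4823 higher and 5094 lower genes stayed within 1.5 times under every alternative run, except 2994 higher with a log2 change of at least 1. Of 75 named genes called at 48 h, 67 kept the call in all 17 alternatives, 8 lost it in some and 0 reversed. Of 17 named genes whose rise differed, 8 kept the call in all 22 alternatives, 9 lost it in some and 0 reversed. The ratios of family sums stayed within the spread of the replicates with library size alone.

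The counts of differing rises from 24 to 48 h (241 larger, 152 smaller) moved with the setting. The larger were 91 with library size alone, 447 in the 30 endosperm libraries alone, 484 in limma, 601 in DESeq2 and 116 after thinning, and the smaller 334 in limma, 420 in DESeq2 and 64 after thinning. With library size alone 46.4% of the called genes had a larger rise, and 75.1% in the endosperm libraries alone, against 61.3%. With libraries left out the larger ran from 93 to 217 (106 to 217 with 1 library out) and the smaller from 40 to 151 (58 to 151). Larger rises were 118 without CDC Morrison 24 h replicate 3, 106 and 126 without AC Morgan 24 h replicates 2 and 3, and 160, 152 and 134 without AC Morgan 48 h replicates 1, 2 and 3. Smaller rises were 90 and 67 without CDC Morrison 24 h replicates 2 and 3, 86, 98 and 83 without its 48 h replicates, 75, 58 and 61 without the AC Morgan 24 h replicates, and 82 and 61 without its 48 h replicates 2 and 3.

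From 0 to 48 h, 444 larger changes became 231 after thinning, 1795 in limma and 874 in DESeq2, and 480 smaller ones 189 with library size alone, 149 after thinning, 1541 in limma and 831 in DESeq2, with 330 to 651 and 221 to 489 when libraries were left out. Smaller changes were 299 without CDC Morrison 0 h replicate 1, 248 and 221 without its 48 h replicates 2 and 3, 231 without AC Morgan 0 h replicate 2, and 235 and 233 without its 48 h replicates 2 and 3. The larger share was 48.1%, against 68.3% with library size alone. For endosperm against embryo, 444 more positive differences became 282 with library size alone, 231 after thinning, 1228 in limma and 821 in DESeq2, and 664 more negative ones 311 after thinning, 1174 in limma and 1054 in DESeq2, with 274 to 434 and 466 to 683 when libraries were left out. More positive differences were 295 without CDC Morrison 48 h endosperm replicate 2, and 285 and 274 without AC Morgan 48 h endosperm replicates 2 and 3. Within CDC Morrison, 3465 genes up and 3929 down from 24 to 48 h became 2226 and 2603 with a log2 change of at least 1, and 2055 and 1701 without both libraries that stand apart. With 1 library out the genes down ran from 2343 to 3497, at 2343, 2478 and 2585 without 24 h replicate 3 and 48 h replicates 1 and 2. Within AC Morgan, 2445 genes down became 1339 with a log2 change of at least 1. With 1 library out, 1288 to 2008 genes were up and 1500 to 2286 down, the fewest without 24 h replicate 3, with 1532 and 1575 without 24 h replicate 2 and 1379 and 1511 without 48 h replicate 3. The causes were not tested beyond fewer libraries or counts in the test.

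The deviations of same-numbered libraries of the cultivars correlated by -0.00162, -0.00411 and -0.111 at 48 h, which gave no sign of pairing between cultivars. Between 48 and 24 h in CDC Morrison such correlations were 0.377, -0.159 and 0.503, while differently numbered pairs ran from -0.485 to 0.339. In AC Morgan they were 0.0556, 0.078 and 0.0778, against -0.0705 to 0.00572. Embryo was not set against endosperm in this way, so pairing of the tissues was not checked. With the replicate number as a block, 5264 genes were higher and 5789 lower at 48 h, and 361 had a larger and 290 a smaller rise.

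Depth limits the calls, since fewer differing changes passed after thinning to the smallest total. Salmon divides reads between near-identical copies, which leaves the level of a single copy uncertain. The groups hold 3 libraries, and 2 CDC Morrison libraries, named above, stand apart. They are not the only uneven replicates. At 0 h, CDC Morrison endosperm replicate 1 differed from replicates 2 and 3 by 26.5 and 37.5 times the counting variance. Replicates 2 and 3 differed by 5.89 times. In 48 h embryo of CDC Morrison the same values were 14.1 and 41.1 times, and 7.15 times. Results at 0 h, from 0 to 48 h and against embryo rest on these groups. Their spread also enters the pooled spread used for the 48 h endosperm comparison.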

Other observations

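Genes called at 48 h were spread over all chromosomes. The share called was between 11.7% on 7C and 24.8% on 1C, with 23.1% on 7D and 21.1% on 1A. On 7D 248 genes were higher and 529 lower in CDC Morrison, and on 1C 168 were higher and 249 lower.

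Outside the hydrolases, the 63 kDa globulin-like proteins, vicilin-type storage proteins of aleurone and embryo (3 genes), summed to 1072, 9729 and 14586 CPM in CDC Morrison, against 19080.2, 20317 and 14688 CPM in AC Morgan. CDC Morrison replicate 1 was far below the other libraries, and no gene passed the test in edgeR, DESeq2 or limma or had an unadjusted p under 0.05.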
